A study of Mus musculus with 6 samples.

Results

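The genes described here are those of the interleukin 6 (IL-6) cytokine family: 4 ligands (Il6, Il11, Lif and Ctf1), 5 receptor chains (Il6st, Il6ra, Il11ra1, Lifr and Osmr) and the feedback inhibitor Socs3. They were found by exact match of the gene symbol in the table of raw counts, and all 10 had a row among the 14831 genes listed. Their expression was measured by bulk RNA-seq in 6 libraries of immortalized mouse pancreatic fibroblasts of a mixed strain, 3 of them labelled WT and the other 3 carrying the label Gli2-/-;Gli3-/- (KO). Every library came from a well grown to confluence in DMEM with calf serum. By the study's methods, the lines grew out of adult pancreata of mice with floxed Gli alleles and were immortalized. Control cells received an adenovirus with CMV-driven eGFP together with a lentivirus for dsRed, and KO cells an adenovirus with CMV-driven eGFP together with one for CMV-driven Cre, before sorting by flow cytometry. How many lines or clones stand behind the wells is not given in the sources used here, so the p-values measure the spread between wells. The comparison asks how expression in fibroblasts differs with loss of Gli2 and Gli3, the transcription factors that act at the end of the Hedgehog pathway. The viruses differed with the label. An effect of Cre, of a vector or of differences between clones therefore cannot be told apart from that of the loss.

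IL-6 family cytokines share the signalling chain gp130, encoded by Il6st. A ligand first binds its own chain (IL-6 with the product of Il6ra, IL-11 with that of Il11ra1) or assembles gp130 with a longer partner chain (LIF and cardiotrophin 1 with LIFR, oncostatin M with OSMR or LIFR), and the complex activates JAK kinases and the transcription factor STAT3. STAT3 induces Socs3, whose product binds gp130 and damps the signal. In the pancreas, fibroblasts are known as a source of IL-6 and LIF for neighbouring epithelial cells.

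The targeted genes went against the labels. Gli2 had 27.1 ± 1.19 CPM (counts scaled to library size) in the WT-labelled libraries and 56.2 ± 1.96 in the KO-labelled ones (SD, n = 3 each), and Gli3 had 12.5 ± 0.044 and 40.8 ± 1.64 CPM. The Hedgehog target genes Gli1 (log2 fold change -2.40, standard error, SE, 0.31) and Ptch1 (-1.53, SE 0.04), chosen after their values were seen, were lower in the KO-labelled libraries. Gli1 rests on few reads, with 40, 50 and 37 counts in the WT-labelled libraries and 4, 10 and 13 in the KO-labelled ones. Totals over a whole gene do not separate the exons that Cre would remove from the others, and counts per exon were not analysed here. Whether the labels were exchanged between the groups was not tested, and an exchange would reverse every direction given below. All directions below are therefore those of the labels. Library totals lay between 31728420 and 41035931 counts, and the common biological coefficient of variation was 3.74%, so that small differences pass the test. Of 10 fibroblast markers 8 had a row, with a summed level of 42200 to 44700 CPM in the WT-labelled and 35900 to 37600 in the KO-labelled libraries, while Pdpn and Fap had none. Macrophage markers had rows for 4 of 8 genes (55.6 to 60.8 and 52.4 to 54.1 CPM), epithelial markers for 4 of 7 (5.95 to 6.96 and 26.3 to 27.2 CPM) and acinar markers for 1 of 5, Cela1 (7.36 to 8.84 and 13.6 to 15.4 CPM). At an adjusted p under 0.05 in the edgeR test given below, 1 fibroblast marker was higher in the KO-labelled libraries and 5 were lower. Of the epithelial markers 3 were higher and 0 lower, of the macrophage markers 0 and 2, and of the acinar markers 1 and 0. Over all genes 29.9% were higher and 28.8% lower. The defining genes Ptprc, Adgre1 and Epcam, the 6 T and NK cell markers and the 4 endothelial markers had no row, and the part of these marker levels in the results was not tested.

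As a family, most members were higher in the KO-labelled libraries, while Il6ra and Lifr were lower. A gene was called at an adjusted p under 0.05 (Benjamini-Hochberg over the 14289 genes tested, edgeR quasi-likelihood test) and a change of at least 1.5-fold. All 10 members were tested and 2 were called, Ctf1 and Il11, both higher in the KO-labelled libraries, where 17.7% of all genes were called and 11.6% were called higher. Without the fold limit 9 members passed, against 58.7% of all genes. Of these, 7 were higher (Il6, Il11, Lif, Ctf1, Il6st, Osmr and Socs3), against 29.9% of all genes, and 2 were lower (Il6ra and Lifr), against 28.8%. The CPM values of the groups did not overlap for any of the 10 members, a separation that 64.2% of all genes showed. The median log2 fold change of the members was 0.23 and the median of its absolute value 0.35, where all genes had 0.00 and 0.22. In bulk samples, fewer cells expressing a gene and less RNA of it per cell cannot be told apart.

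**Figure D1:**
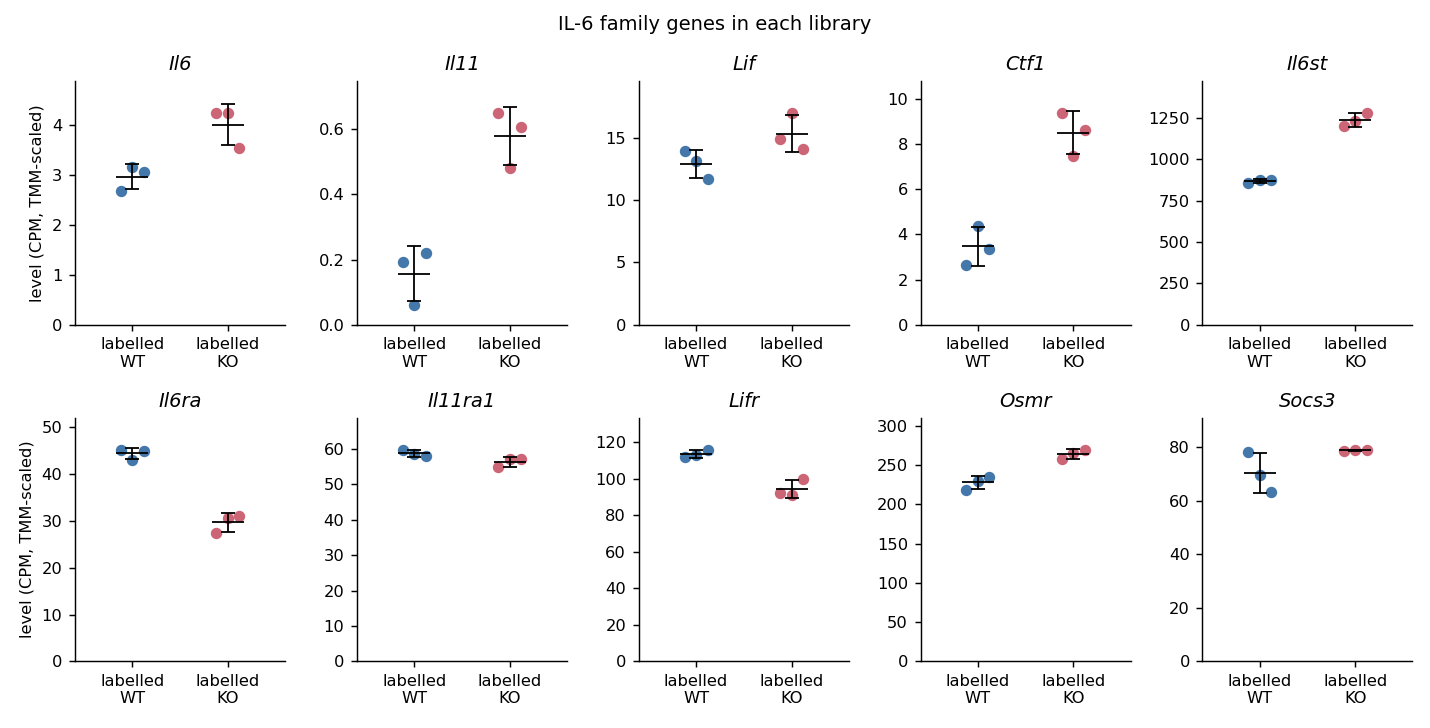
Level of each of the 10 genes in every library, in CPM scaled by TMM factors on axes that start at 0; points are libraries, the long line is the mean and the bars are the SD (n = 3 a group). The groups are apart in every panel, widely for Il11 and Ctf1 and barely for Socs3, Lif and Il11ra1. The highest WT-labelled and lowest KO-labelled libraries lie at 78.3 and 78.7 for Socs3 and at 13.9 and 14.1 for Lif. For Il11ra1 the lowest WT-labelled library lies at 58.0 and the highest KO-labelled one at 57.1.

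The windows just upstream of the transcription starts are shown for 5 members only. These were higher in the KO-labelled libraries, and their window held a short motif among those searched. The other windows are not shown, among them those of Lifr, lower with a motif, and of Ctf1 and Osmr, higher without any. Each line gives the 250 bases before a start annotated by RefSeq (GRCm38.p6), 5′ to 3′ along the gene's strand, with the motif in capitals. The windows are those of Il6 (chr5:30012864-30013113, plus strand), the downstream start of Il11 (chr7:4778142-4778391, minus strand), Lif (chr11:4257318-4257567, plus strand), Il6st (chr13:112463820-112464069, plus strand) and Socs3 (chr11:117969367-117969616, minus strand).
Il6: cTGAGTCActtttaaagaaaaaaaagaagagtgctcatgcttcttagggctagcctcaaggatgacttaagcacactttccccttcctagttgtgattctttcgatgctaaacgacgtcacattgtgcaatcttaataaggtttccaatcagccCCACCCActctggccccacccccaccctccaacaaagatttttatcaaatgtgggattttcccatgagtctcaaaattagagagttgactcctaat
Il11: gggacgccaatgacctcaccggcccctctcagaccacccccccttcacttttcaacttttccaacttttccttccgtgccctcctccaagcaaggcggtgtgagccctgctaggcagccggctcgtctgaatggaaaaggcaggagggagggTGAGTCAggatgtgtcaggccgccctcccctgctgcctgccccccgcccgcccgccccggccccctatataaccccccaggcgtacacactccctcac
Lif: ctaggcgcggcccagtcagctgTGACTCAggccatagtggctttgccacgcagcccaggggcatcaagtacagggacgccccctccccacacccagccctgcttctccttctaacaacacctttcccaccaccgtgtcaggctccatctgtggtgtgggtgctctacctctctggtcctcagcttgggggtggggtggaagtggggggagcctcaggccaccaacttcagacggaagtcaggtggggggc
Il6st: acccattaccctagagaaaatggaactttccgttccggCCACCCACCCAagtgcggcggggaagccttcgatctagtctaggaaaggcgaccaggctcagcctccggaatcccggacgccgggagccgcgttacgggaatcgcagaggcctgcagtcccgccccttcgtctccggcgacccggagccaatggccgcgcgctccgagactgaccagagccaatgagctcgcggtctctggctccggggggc
Socs3: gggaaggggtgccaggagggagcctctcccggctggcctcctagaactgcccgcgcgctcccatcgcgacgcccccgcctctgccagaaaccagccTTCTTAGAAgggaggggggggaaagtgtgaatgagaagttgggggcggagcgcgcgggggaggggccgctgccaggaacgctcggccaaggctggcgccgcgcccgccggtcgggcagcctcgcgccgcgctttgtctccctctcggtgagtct

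Both strands were searched. The AP-1 motif TGANTCA lay at -249 to -243 from the start in Il6, at -228 to -222 in Lif and at -98 to -92 in Il11, and 6.75% of 32851 mouse promoter windows of this length hold it. The STAT motif TTCNNNGAA lay at -154 to -146 in Socs3 and is held by 7.02% of windows. The GLI motif GACCACCCA, held by 0.225% of windows, was in none of the 13 windows of the 10 members. Its last 7 letters alone, CCACCCA, are held by 8.11% of windows and lay at -96 to -90 in Il6, as an overlapping pair between -212 and -202 in Il6st, and at -71 to -65 before the second start of Lifr. The window of Ctf1, the member with the smallest adjusted p among the ligands, held none of these motifs. The motifs were picked with the results known, and a match is a description of the letters only.

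Among the ligands, Ctf1 had the smallest adjusted p. It encodes cardiotrophin 1, a ligand of LIFR and gp130 first described for its action on heart muscle cells. Ctf1 (chromosome 7, 127712736 to 127718192; all gene positions are those of GENCODE M21, GRCm38) had 83, 147 and 107 counts in the WT-labelled libraries and 332, 312 and 285 in the KO-labelled ones. Each KO-labelled library thus held at least 7.49 CPM, while the highest WT-labelled one held 4.39. The mean rose from 3.46 ± 0.876 to 8.50 ± 0.952 CPM, a log2 fold change of 1.28 ± 0.15 (SE, 2.43-fold, adjusted p = 8.19e-06). Without strand in the counting, reads from 87 exon bases (4.77%) could not be told from those of Ctf2, a neighbour on the opposite strand with no row. Whether the counting used strand is not given in the sources used here.

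Il11 encodes IL-11, a cytokine studied for its role in fibroblast activation. Il11 (chromosome 7, 4772373 to 4782859) was near the limit of detection, with 0.191, 0.0597 and 0.219 CPM in the WT-labelled libraries and 0.65, 0.48 and 0.606 in the KO-labelled ones. These levels rest on 15 counts summed over the WT-labelled libraries and 63 over the KO-labelled ones, and the second WT-labelled library, with 2 counts, lies under the floor of 3 counts. The log2 fold change was 1.86, with a 95% interval from 1.03 to 2.7, the widest among the members (3.63-fold, adjusted p = 0.00107).

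Il6 and Lif were higher by less than the fold limit. Il6, which encodes IL-6, the founding member of the family and an inducer of the acute phase response, lies on chromosome 5 from 30013114 to 30019981. Its libraries held 2.68, 3.16 and 3.07 CPM under the WT label and 4.24, 4.25 and 3.54 under the KO label, with every KO-labelled library above the WT-labelled ones. The log2 fold change was 0.44, with an interval from 0.17 to 0.70 (1.35-fold, adjusted p = 0.00759). Lif (chromosome 11, 4257557 to 4272514), which encodes leukemia inhibitory factor, held 13.9, 13.1 and 11.7 CPM in the WT-labelled libraries and 14.9, 17.0 and 14.1 in the KO-labelled ones. The groups of Lif lay close together and did not overlap, with means of 12.9 ± 1.09 and 15.3 ± 1.49 CPM. Its log2 fold change was 0.25 ± 0.08 (SE, adjusted p = 0.0178), and the call without the fold limit was lost without WT-labelled replicate 3 (0.19, adjusted p = 0.076) or KO-labelled replicate 2 (0.17, adjusted p = 0.112).

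Among the receptor chains, the shared chain and OSMR were higher, and the chains that bind IL-6 and LIF were lower. Il6st (chromosome 13, 112464070 to 112510086), which encodes gp130, had 26753, 29228 and 27909 counts in the WT-labelled libraries and 42621, 51417 and 42281 in the KO-labelled ones. It was the most abundant member, and each KO-labelled library exceeded every WT-labelled one, with means of 867 ± 11.5 and 1240 ± 38.9 CPM. The log2 fold change of Il6st was 0.52 ± 0.03 (SE, 1.43-fold, adjusted p = 1.64e-08), the smallest adjusted p of the 10 members. Osmr (chromosome 15, 6813577 to 6874969), which encodes the oncostatin M chain that pairs with gp130, held 219, 230 and 235 CPM in the WT-labelled libraries and 258, 265 and 270 in the KO-labelled ones. Its groups did not overlap, and the log2 fold change was 0.21 ± 0.03 (SE, adjusted p = 1.25e-04).

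Il6ra (chromosome 3, 89864059 to 89913196), which encodes the chain that binds IL-6 and can also act after shedding from the surface, held 45.2, 43.0 and 44.9 CPM in the WT-labelled libraries and 27.3, 30.6 and 31.1 in the KO-labelled ones. All KO-labelled libraries were well below the WT-labelled ones, and the mean fell from 44.4 ± 1.21 to 29.7 ± 2.07 CPM. The log2 fold change of Il6ra was -0.58 ± 0.05 (SE, adjusted p = 7.52e-07). At -0.581 it lay just inside the 1.5-fold limit of 0.585, and it was called, at -0.61 each time, without WT-labelled replicate 2, KO-labelled replicate 2 or KO-labelled replicate 3. With limma on the deposited log2 CPM it was called as well (-0.59, adjusted p = 2.16e-06). A stretch of 242 exon bases (2.8%) overlaps the antisense gene Gm42809, which had no row.

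Lifr (chromosome 15, 7090614 to 7197489) encodes the chain through which LIF, cardiotrophin 1 and, with lower affinity, oncostatin M signal. Its level was 112, 113 and 116 CPM in the WT-labelled libraries and 92.2, 91.1 and 100 in the KO-labelled ones. The groups did not overlap, and the log2 fold change was -0.26 ± 0.04 (SE, 1.20-fold, adjusted p = 8.76e-05). Lif and Ctf1 on the one side and Lifr on the other thus passed the test in opposite directions.

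Il11ra1 (chromosome 4, 41699989 to 41769474), which encodes the chain that binds IL-11, did not pass the test. It held 59.8, 58.4 and 58.0 CPM in the WT-labelled libraries and 54.8, 57.0 and 57.1 in the KO-labelled ones. The KO-labelled values lie just under the WT-labelled ones, and the log2 fold change was -0.06 with an interval from -0.14 to 0.02 (adjusted p = 0.164). The annotation holds near-identical copies of this gene, Il11ra2 and Gm13305. Reads could have been split between the copies or dropped, which was not tested. The level, share and ratio of Il11ra1 given here and below are therefore uncertain.

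Socs3 (chromosome 11, 117966079 to 117970047), the inhibitor induced by STAT3, had the smallest difference of the 9 genes that passed. Its WT-labelled libraries spread from 63.4 to 78.3 CPM, with 69.5 between them, while the KO-labelled ones held 78.7, 79.2 and 78.9. The means were 70.4 ± 7.51 and 78.9 ± 0.272 CPM and the log2 fold change 0.17 ± 0.06 (SE, adjusted p = 0.0277). This call was lost without WT-labelled replicate 2 (adjusted p = 0.0969), WT-labelled replicate 3 (0.122), KO-labelled replicate 1 (0.0604) or KO-labelled replicate 2 (0.0694), with log2 fold changes between 0.09 and 0.16.

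**Figure D2:**
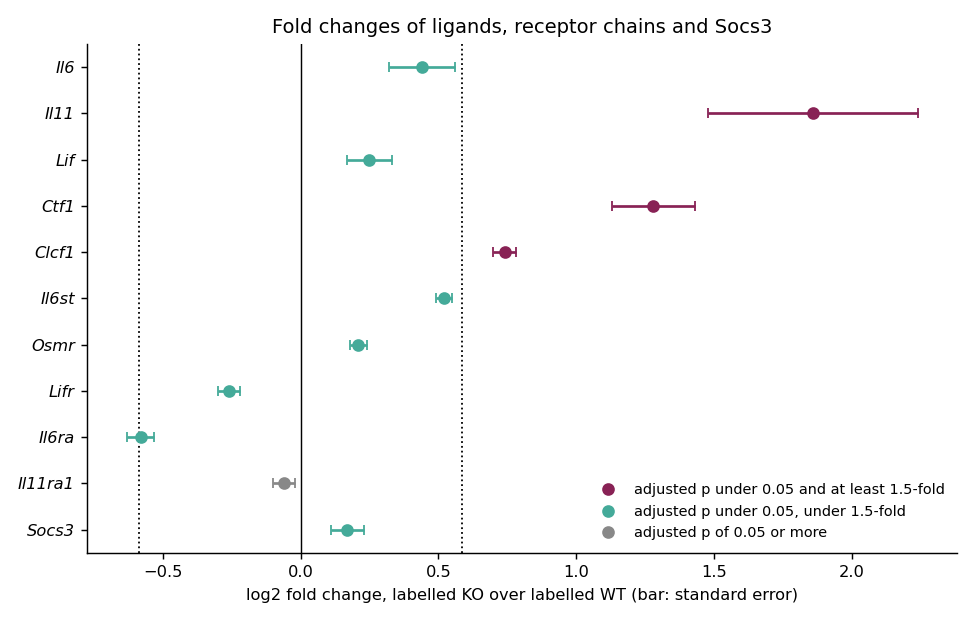
Log2 fold change (KO-labelled over WT-labelled) of ligands, receptor chains and Socs3, with bars for the standard error; dotted lines mark the 1.5-fold limit and colours the result of the edgeR test. Il11 (1.86) and Ctf1 (1.28) lie past the limit, Il6ra (-0.58) at its edge, and Clcf1 (0.74) is a family gene outside the 10.

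The levels of the genes were ordered per kilobase of exon (RPKM, from the union of annotated exons). In the WT-labelled libraries Il6st led with 78.1 ± 1.03 RPKM, followed by Socs3 (24.4 ± 2.6), Osmr (18.8 ± 0.691), Il11ra1 (13.1 ± 0.221) and Lifr (10.5 ± 0.183). Il6ra followed at 5.13 ± 0.14, then the ligands Lif (2.96 ± 0.252), Ctf1 (1.9 ± 0.48), Il6 (1.22 ± 0.106) and Il11 (0.0754 ± 0.041). Receptor chains thus stood above all 4 ligands, and no neighbours in this order overlapped between libraries. In the KO-labelled libraries Ctf1 stood at 4.66 ± 0.522 RPKM, above Lif at 3.52 ± 0.343 and Il6ra at 3.43 ± 0.239. Lif and Il6ra overlapped there, with means 1.03-fold apart, and were the only neighbours in the order that did.

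**Figure D3:**
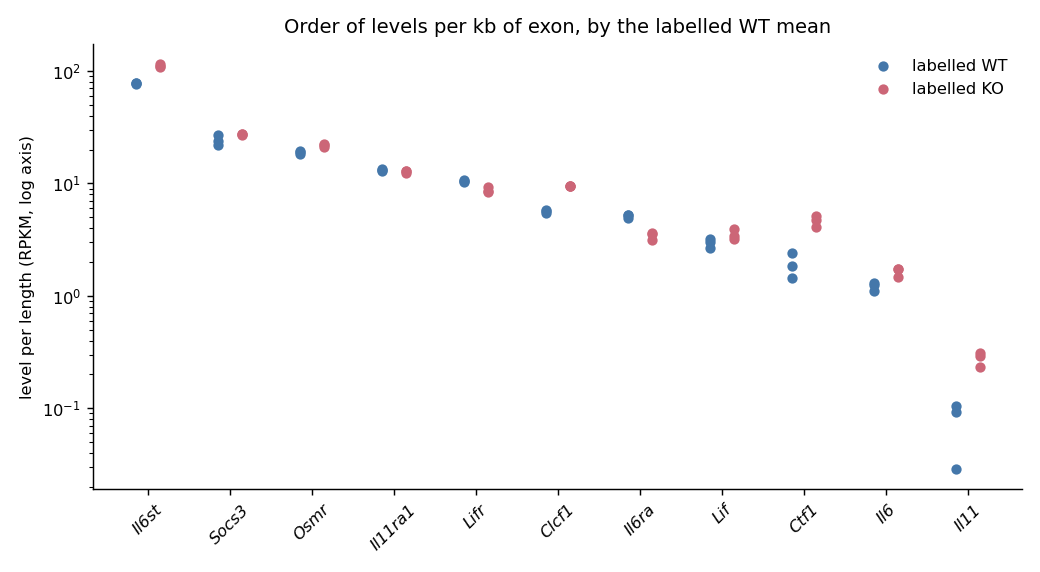
Level per length (RPKM, log axis) of the 10 genes and of Clcf1 in each library, ordered by the mean of the WT-labelled libraries. Il6st stands at the top of both groups and Il11 at the bottom, and in the KO-labelled libraries Ctf1 lies above Lif and Il6ra.

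The make-up of the transcripts of the 4 ligands and of the 5 receptor chains differed between the groups. The 4 ligands summed to 6.16 ± 0.506 RPKM in the WT-labelled and 10.1 ± 0.471 in the KO-labelled libraries. Lif made up 48.3% ± 5.53 of that sum under the WT label and 34.9% ± 3.66 under the KO label, while Ctf1 went from 30.6% ± 5.43 to 46.1% ± 4.29. Per kilobase of exon, Ctf1 was thus the leading transcript of the 4 ligands in the KO-labelled libraries and Lif in the WT-labelled ones. The margin was small in KO-labelled replicate 2, where Ctf1 made up 41.1% and Lif 39.1%. The lead of Ctf1 depends on the exon lengths used, 1824 bases for Ctf1 and 4350 for Lif. In CPM, Lif was above Ctf1 in both groups (12.9 and 3.46 under the WT label, 15.3 and 8.5 under the KO label). The share of Il6 was 19.9% ± 1.35 and 16.3% ± 1.25, and that of Il11 1.26% ± 0.732 and 2.75% ± 0.38. Of the 5 receptor chains, which summed to 126 ± 1.58 and 158 ± 4.84 RPKM, Il6st made up 62.1% ± 0.21 and 70.5% ± 0.088. The share of Il6ra was 4.09% ± 0.138 and 2.17% ± 0.1, and that of Lifr 8.37% ± 0.074 and 5.54% ± 0.174. Il11ra1 made up 10.4% ± 0.308 and 7.96% ± 0.131, and Osmr 15% ± 0.363 and 13.8% ± 0.128. The share of Osmr was thus lower in the KO-labelled libraries while its level was higher. This follows from the sum, of which Il6st is the largest part and which rose by more than Osmr did. These shares are descriptions, with no test, and they compare transcripts, not proteins on the surface.

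Ratios of chains within a library do not depend on how libraries are scaled. Counts per kilobase of Il6ra relative to Il6st were 0.0681, 0.0633 and 0.0659 in the WT-labelled libraries and 0.0291, 0.0318 and 0.0312 in the KO-labelled ones. The ligand-binding chain was thus 2.14-fold lower relative to the shared chain, with no overlap. Il11ra1 relative to Il6st went from 0.168 ± 0.00507 to 0.113 ± 0.002, 1.49-fold lower, where Il6st passed the test as higher and Il11ra1 did not pass it. Lifr relative to Osmr, the chains that can each pair with gp130 for oncostatin M, was 0.574, 0.551 and 0.552 under the WT label and 0.401, 0.386 and 0.418 under the KO label, 1.39-fold lower. For each of these 3 ratios the exact two-sided permutation test gave p = 0.1, the smallest that 3 libraries against 3 allow, and 0.1 after adjustment over the 3, so that this test cannot reach 0.05 here.

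**Figure D4:**
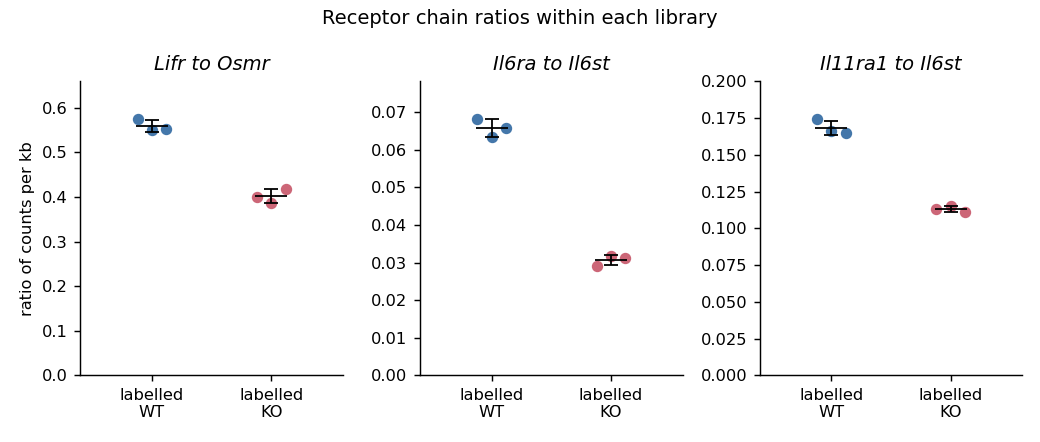
Ratio of counts per kilobase of exon between receptor chains in each library, with the mean and SD (n = 3 a group) on axes that start at 0. All 3 ratios are lower in every KO-labelled library, most for Il6ra to Il6st (0.0658 and 0.0307).

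Other members of the cytokine family were listed as well, 14 genes of which 3 had a row and 1, Clcf1, had enough counts to be tested, while Cntf and Il27ra had too few. Clcf1 encodes a cytokine that signals through LIFR and gp130, and it was called higher in the KO-labelled libraries. Clcf1 had 679, 740 and 670 counts in the WT-labelled libraries and 1267, 1500 and 1192 in the KO-labelled ones, with no overlap and a log2 fold change of 0.74 ± 0.04 (SE, adjusted p = 1.40e-08). At 5.67 ± 0.147 and 9.45 ± 0.0437 RPKM it stood above each of the 4 ligands in both groups, and 8.17% of its exon bases are shared with AC109138.7 on the same strand. Osm, which encodes oncostatin M, and the receptor chain gene Cntfr had no row and were not analysed here.

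Of the genes behind gp130, Stat3 and Jak1 did not pass the test. Of 31 listed JAK, STAT, SOCS, phosphatase and sheddase genes 28 were tested, and 1 was called, Jak3 (3.57%, where 17.7% of all genes were called). Without the fold limit 16 passed, 7 higher and 9 lower, which at 57.1% is close to the 58.7% of all genes, and the median log2 fold change was 0.00. Stat3 had 318 ± 6.4 CPM in the WT-labelled and 316 ± 6.26 in the KO-labelled libraries, with an interval of the log2 fold change from -0.07 to 0.06 (adjusted p = 0.812). Jak1, a main kinase of gp130, had 161 ± 2.22 and 163 ± 6.16 CPM (log2 fold change 0.02, interval -0.05 to 0.10, adjusted p = 0.553). Both genes overlapped between the groups. Jak3, a kinase best known from lymphocyte cytokine receptors, had 24.1 ± 1.37 and 38.8 ± 2.14 CPM, a log2 fold change of 0.68 ± 0.05 (SE, adjusted p = 3.09e-07). Among genes under the fold limit and chosen after their values were seen, Jak2 had a log2 fold change of 0.48 and the inhibitor Cish of 0.58, while Stat2, a transducer of interferon signals, had -0.52.

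Genes that STAT3 or IL-6 are known to induce went both ways. Of 32 listed, 30 were tested and 9 were called, 7 higher and 2 lower, and without the fold limit 23 passed, 17 higher and 6 lower. Over all genes 17.7% were called (11.6% higher), and 58.7% passed without the fold limit (29.9% higher and 28.8% lower). The median log2 fold change of the tested genes was 0.22. Saa3, an acute phase gene, had 3, 3 and 2 counts in the WT-labelled libraries and 30, 29 and 18 in the KO-labelled ones, and was at least 7.48-fold higher against a floor of 3 counts in each library (adjusted p = 2.06e-05). Steap4, a metalloreductase induced by inflammatory cytokines, had 1.11 ± 0.207 and 7.29 ± 1.18 CPM, a log2 fold change of 2.7 ± 0.17 (SE, adjusted p = 3.29e-08). Birc5, which encodes survivin and is also a gene of mitosis, had a log2 fold change of 1.51 ± 0.10 (SE, adjusted p = 4.72e-08), and the early response gene Ier3 one of 0.84 ± 0.07 (SE, adjusted p = 4.34e-07). Of the genes called lower, Lbp, which encodes a binding protein for bacterial lipopolysaccharide, had 248 ± 10.7 and 79.7 ± 1.3 CPM, a log2 fold change of -1.64 ± 0.04 (SE, adjusted p = 2.10e-12). Hp, which encodes haptoglobin, had a log2 fold change of -0.97 ± 0.09 (SE, adjusted p = 7.61e-07). Acute phase genes thus passed in both directions, Saa3 higher and Lbp and Hp lower. Jak3 is in this list too, and Lcn2 and Lrg1 had no row.

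**Figure D5:**
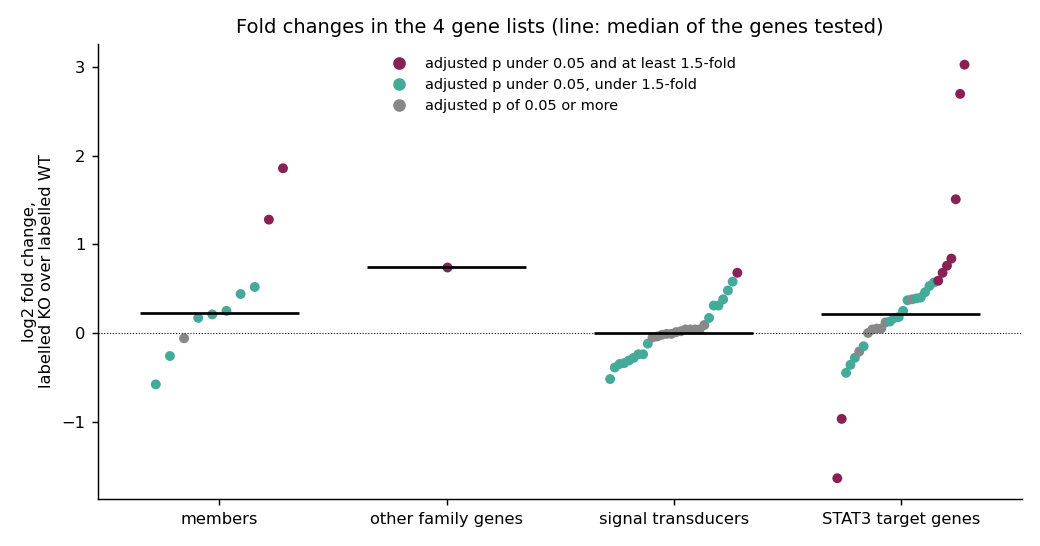
Log2 fold change (KO-labelled over WT-labelled) of each tested gene in 4 lists, the 10 genes described here (members), other family genes, signal transducers and STAT3 target genes; lines mark the median of each list and colours the result of the edgeR test. The medians are 0.23, 0.74, 0.00 and 0.22, and the dots past the fold limit number 2, 1, 1 and 9.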

How the data were processed

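Reads of poly-A libraries (NEB Ultra II) were processed by the study. Its processing notes name STAR 2.7.2b, featureCounts, limma and GRCm38.p6, without roles, and the annotation release and strand setting are not given in the sources used here. The authors deposited raw counts for each gene and log2 CPM values from limma's voom for the same 14831 genes, from which genes with low counts had been removed.

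Groups came from the genotype labels. The counts entered edgeR 4.0.16 (R 4.3.3) with TMM scaling, the filterByExpr filter, the quasi-likelihood F test and Benjamini-Hochberg adjustment over 14289 genes, and the procedure was tested on simulated data. Fold changes are KO-labelled over WT-labelled, standard errors come from the F statistic, and CPM use TMM-scaled totals. Intervals are 95% intervals from the standard error and the t quantile at the fit's degrees of freedom. Positions and exon lengths are from GENCODE M21 (14822 identifiers matched without version). Promoters are from RefSeq, where all 10 members matched, and the 50 bases after each start were left out. A floor of 3 counts is 0.072 to 0.0957 CPM and covers counting error only. Pairs of replicates differed by more than sampling noise (chi-square per degree of freedom 2.47 to 7.53), so all 6 libraries were kept.

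A listed gene is not reported here. The members and lists were chosen with earlier results of these data known. The rule names all members, Gli2, Gli3, Stat3, Jak1, Osm and Clcf1, and up to 4 called genes in each direction with the largest absolute log2 fold change from each other list. As alternatives, scaling was by RLE, the upper quartile or total counts. Other runs used no filter or at least 10 counts in every library, no fold limit or 2-fold, DESeq2 1.42.0, limma-voom (limma 3.58.1), limma on the deposited log2 values, or left out each library in turn. Counting the members without the fold limit under each of these, and following the named genes outside the members, was added after seeing the data.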

Additional observations from a re-analysis of the deposited data

How the results depend on the processing

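The log2 fold changes of the 10 members were recomputed 139 times under other settings: 133 kept their direction and their side of an adjusted p of 0.05, 6 (2 of Lif and 4 of Socs3, all with a library left out) kept only the direction, and 0 reversed. The number of members called was 1 with a filter of at least 10 counts per library, since Il11 was then not tested, 9 with no fold limit, 3 with limma on the deposited log2 values, where Il6ra was added, and 2 to 3 with each library left out in turn. Members passing with no fold limit numbered 7 to 9 with each library left out. The count of 1 other family gene called, Clcf1, was 0 at 2-fold and stayed at 1 with each library left out. Signal transducers called numbered 2 with upper-quartile scaling, 2 with total-count scaling, 16 with no fold limit, 0 at 2-fold and 1 to 3 with a library left out. STAT3 target genes called numbered 23 with no fold limit, 4 at 2-fold and 8 to 11 with a library left out. The log2 fold change of Stat3, which passed in no setting, was 0.05 with upper-quartile scaling, 0.03 with total-count scaling and -0.03 to 0.00 with each library left out, and that of Jak1 was 0.08 with upper-quartile scaling (adjusted p = 0.0494). Other scalings moved the median of all genes by at most 0.059 on the log2 scale. Where no value above shows the cause of a change, the cause was not tested. No paired analysis was possible because the labels give no replicate numbers that the groups share. Depth limits Il11 most, with 15 counts over the WT-labelled libraries.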
